A study of Mus musculus with 12 samples.

Results

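The mitochondrial ribosomal proteins are the nuclear-encoded proteins of the ribosome inside mitochondria. They were taken as every gene whose symbol begins with Mrpl or Mrps followed by a number, leaving out pseudogenes. The rule gave 78 of the 25655 genes listed, 49 with large-subunit symbols (Mrpl) and 29 with small-subunit symbols (Mrps). All 78 were read in these cells and all 78 passed the filter for testing. Messenger RNA was measured in splenic CD8 T cells of female C57BL/6 mice that were Ezh2-deficient (KO) or wild type (WT). There were 3 libraries in each of 4 groups: KO at day 5, WT at day 5, KO at day 3 and WT at day 3. In all groups naive cells (CD44 low, CD62L high) were first activated for 2 days on plates coated with an anti-TCR-β antibody (3 µg/ml), in the presence of anti-CD28 (1 µg/ml) and IL-2 (10 ng/ml), and were then kept in IL-2 alone. The sample titles give days 3 and 5, whereas the culture protocol gives 1 or 5 further days after the 2 days of activation, so "day 5" follows the titles. The age of the mice, the Ezh2 allele, the way it was deleted, and whether the 3 libraries of a group came from separate mice or cultures are not stated in the labels. The p-values thus rest on the spread among libraries of a group, which could be purely technical.

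The mitochondrial ribosome translates the few mRNAs encoded by mitochondrial DNA, all of which specify subunits of the respiratory chain and ATP synthase. Its rRNAs come from mitochondrial DNA, but its proteins are made in the cytosol and imported. Some descend from bacterial ribosomal proteins, and others were added during the evolution of mitochondria. The small subunit binds the mRNA and holds the decoding centre, and the large subunit forms the peptide bond and guides the new chain to the inner membrane. Naive T cells build up mitochondria when they are activated, and cytotoxic CD8 T cells need mitochondrial translation to keep killing. EZH2 is the catalytic subunit of Polycomb repressive complex 2, a histone methyltransferase that keeps genes silent.

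The libraries held 1545391 to 2011247 reads over 11257 to 11973 detected genes. The unit throughout is CPM, in which the values of each library sum to 1000000, and 1 read was worth 0.497 to 0.647 CPM. Ezh2 itself was at 159, 283 and 161 CPM in KO day 5 libraries, 306, 319 and 316 in WT day 5, 377, 334 and 311 in KO day 3 and 357, 374 and 409 in WT day 3. KO and WT overlapped at day 3, and at day 5 all KO libraries were below WT, with KO replicate 2 closer to the WT libraries than to the other KO libraries. The reads lie near the 3′ end of transcripts and may be outside the deleted part, so these values do not check the genotype. KO day 5 replicate 2 stood apart from the other libraries: its counts differed from those of the other KO day 5 libraries by a chi-square of 5.38 and 5.21 per degree of freedom, against 1.34 to 2.45 for every other pair of replicates, and the counts of members and of the larger gene lists that moved by more than 1.5 times without it are given both ways. Leaving it out changes the estimate of spread that all comparisons share. All 8 CD8 T cell markers were detected, and Ms4a1 of the B cell markers and Mpo and S100a9 of the myeloid markers had no read in any library. The B cell markers summed to 3.24 to 8.21 CPM in KO day 5 libraries, 2.83 to 5.57 in WT day 5, 5.97 to 11.9 in KO day 3 and 4.99 to 5.92 in WT day 3, mostly from Cd79b and Ebf1. The 12 myeloid and dendritic cell markers summed to 121.9 to 151 CPM in KO day 5 libraries, 77.1 to 87.0 in WT day 5, 82.2 to 96.8 in KO day 3 and 63.4 to 75.9 in WT day 3. Most of each sum came from Cst3 alone, with means of 115 CPM in KO day 5, 77.4 in WT day 5, 82.4 in KO day 3 and 67.6 in WT day 3. The 7 erythroid and platelet markers, mostly haemoglobin mRNAs, summed to 17.5 to 38.5 CPM in KO day 5, 10.2 to 20.5 in WT day 5, 15.9 to 56.3 in KO day 3 and 5.33 to 16.6 in WT day 3. Of the 5 that were tested, 1 rose at day 5 and 2 at day 3 in KO against WT. The myeloid sums moved in the opposite direction to the mitochondrial ribosomal proteins in all 4 comparisons of groups, the erythroid means did so between genotypes, and the part of either in the results was not tested.

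Loss of Ezh2 went with less mitochondrial ribosomal protein mRNA at both days, and the same held for day 5 set against day 3 in both genotypes. The 49 large-subunit mRNAs summed to 2095, 2308 and 2169 CPM in KO day 5 libraries, 2697, 2678 and 2732 CPM in WT day 5, 2878, 2846 and 2861 CPM in KO day 3, and 3226, 3256 and 3247 CPM in WT day 3. No library of one group overlapped another group, and WT day 3 was highest and KO day 5 lowest. The 29 small-subunit mRNAs summed to 1263, 1432 and 1257 CPM in KO day 5 libraries, 1611, 1614 and 1582 CPM in WT day 5, 1648, 1619 and 1575 CPM in KO day 3, and 1831, 1846 and 1850 CPM in WT day 3. Here KO day 3 and WT day 5 overlapped in CPM, and the other groups did not. Whether the small-subunit sums of KO and WT at day 5 stay apart under another scaling was not tested. All members together averaged 3508 ± 203 CPM in KO day 5 and 4305 ± 11.5 CPM in WT day 5, a difference of -18.5%, and 4475 ± 46.2 CPM in KO day 3 and 5085 ± 24.4 CPM in WT day 3, a difference of -12.0% (SD, n = 3 each). The difference in the sum was -18.9% for the large and -17.8% for the small subunit at day 5, and -11.8% and -12.4% at day 3. These sums depend on the scaling. Median-of-ratios factors, by which CPM would be divided, were 0.975, 0.942 and 0.967 in KO day 5 and 1.031, 1.035 and 1.041 in WT day 5 libraries. They were 0.981 to 1.014 in KO day 3 and 0.998 to 1.012 in WT day 3. Dividing by them narrows the day 5 difference and brings it nearer to that at day 3, but the sums were not rescaled. The large sum was 1.61 to 1.73 times the small sum in day 5 libraries and 1.75 to 1.82 times in day 3 libraries. The ratio thus did not overlap between days, while KO and WT of the same day overlapped. CPM is a share of a library, and in such bulk samples fewer cells with these mRNAs and less of them per cell cannot be told apart.

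**Figure D1:**
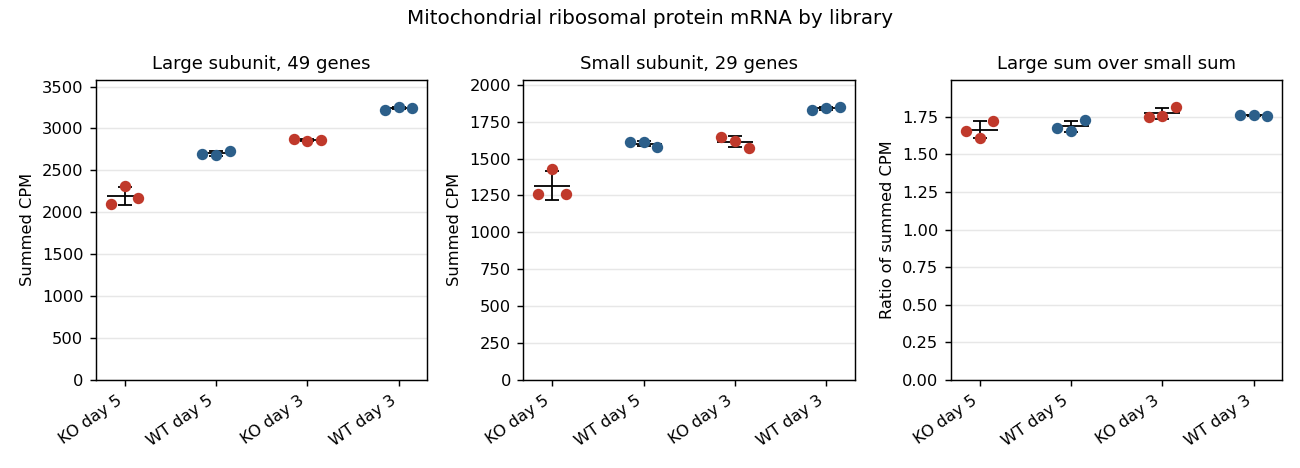
Summed CPM of the 49 large-subunit genes and the 29 small-subunit genes, and the ratio of the large to the small sum (y axes, from 0), for KO day 5, WT day 5, KO day 3 and WT day 3. Points are libraries, the bar is the group mean and the whiskers are 1 SD (n = 3). In CPM without further scaling, every KO library lies below every WT library of the same day in both sums. The ratio lies between 1.61 and 1.73 at day 5 and between 1.75 and 1.82 at day 3.

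The shift was seen in the median member as well as in the sums. Set against the mean of the WT libraries of the same day, the median member differed by -0.43, -0.30 and -0.46 on the log2(CPM + 1) scale in the KO day 5 libraries and by -0.17, -0.20 and -0.23 in the KO day 3 libraries. KO day 5 replicate 2, the library that stood apart, had the smallest difference of the KO day 5 libraries.

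Genes were then tested one by one with limma, with p-values adjusted over all 11417 genes tested and a threshold of 0.05. Fold changes are log2 differences of log2(CPM + 1), first-named group minus second. At day 5, 25 of 49 large-subunit mRNAs (51.0%) and 14 of 29 small-subunit mRNAs (48.3%) fell in KO against WT cells, beside 22.9% of all genes tested. Of each subunit 1 mRNA rose, beside 16.5% of all genes. The median log2 fold change was -0.42 in each subunit and -0.079 over all genes tested, and 66 of the 78 members had a value below 0. All 3 KO libraries lay below all 3 WT libraries for 40 members, beside 26.7% of all genes, and 44 members had no overlap in either direction, beside 47.7%. With median-of-ratios scaling the calls were 6 higher and 30 lower, with quantile normalization 6 and 31 and with edgeR on the recovered reads 5 and 30, against 2 and 39 in CPM. Over all genes the shares called higher and lower were 20.2% and 18.4% with median-of-ratios scaling, and 19.4% and 18.7% with edgeR, against 16.5% and 22.9% in CPM. DESeq2 on the recovered reads called 2 large-subunit and 1 small-subunit mRNA higher and 12 and 7 lower, with medians of -0.30 and -0.28 beside 0.027 over all genes, 15.6% of which were called higher and 13.9% lower. With limma in CPM and KO day 5 replicate 2 left out, 3 members were called higher and 45 lower. The shares over all genes in that fit are not given here, so these counts are not set against a background.

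Among the large-subunit proteins with a bacterial counterpart, Mrpl12 and Mrpl2 had the smallest adjusted p. Mrpl12 belongs to the stalk that recruits translation factors and has also been reported to bind the mitochondrial RNA polymerase (chr11:120484613-120489065, plus strand, GRCm38). It was at 59.5, 75.8 and 60.02 CPM in KO day 5 libraries and 120.4, 98.1 and 129 CPM in WT day 5 libraries, a log2 fold change of -0.82 ± 0.12 (SE), adjusted p = 1.31e-05. The groups did not overlap, and the KO mean was 43.8% lower. The last 500 annotated bases of Mrpl12 overlap Gm16755 on the opposite strand, and reads of such pairs cannot be told apart where counting ignores strand. Mrpl2, of the core around the peptidyl transferase centre (chr17:46646229-46650139, plus strand), was at 33.6, 48.7 and 35.4 CPM in KO and 71.9, 69.7 and 80.2 CPM in WT libraries (-0.91 ± 0.14 (SE), adjusted p = 1.29e-05), again with no overlap. Mrpl23, a protein at the exit of the peptide tunnel, was at 42.1, 35.1 and 37.3 CPM in KO and 59.6, 54.6 and 72.9 CPM in WT libraries (-0.69 ± 0.14 (SE), adjusted p = 0.000385). Mrpl13 was at 22.6, 27.1 and 27.2 CPM in KO and 43.8, 41.8 and 38.4 CPM in WT libraries (-0.67 ± 0.14 (SE), adjusted p = 0.000499). The KO libraries were the low ones for both, without overlap. Mrpl55, one of the least abundant members, was at 7.77, 8.63 and 6.32 CPM in KO and 18.7, 18.95 and 15.3 CPM in WT libraries (-1.12 ± 0.23 (SE), adjusted p = 0.000557). Its groups did not overlap either, and its KO value rests on 36 reads over the 3 libraries.

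Of the large-subunit proteins counted as mitochondria-specific, for want of an assigned counterpart in the bacterial ribosome, Mrpl39 had the smallest adjusted p (chr16:84717576-84735742, minus strand). It was at 14.2, 14.8 and 11.4 CPM in KO day 5 and 36.2, 24.5 and 30.5 CPM in WT day 5 libraries, a log2 fold change of -1.11 ± 0.20 (SE), adjusted p = 0.000143. No KO library reached the lowest WT library. Mrpl58, a peptidyl-tRNA hydrolase that was built into the large subunit, was at 34.9, 45.6 and 53.1 CPM in KO and 61.9, 49.05 and 62.2 CPM in WT libraries (-0.38 ± 0.15 (SE), adjusted p = 0.0442). Its groups overlapped, and its call ended under 14 of the 21 alternatives run (adjusted p of 0.0112 to 0.333 over them).

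In the small subunit Mrps5, which lines the mRNA entry channel, had the smallest adjusted p of all 78 members (chr2:127587222-127606829, plus strand). It was at 46.6, 65.98 and 56.9 CPM in KO day 5 and 104, 118 and 106 CPM in WT day 5 libraries, a log2 fold change of -0.95 ± 0.12 (SE), adjusted p = 1.13e-06. The highest KO library was far below the lowest WT library, and the KO mean was 48.3% lower. Mrps10, of the small-subunit head, was at 16.8, 17.3 and 20.8 CPM in KO and 36.2, 41.8 and 28.3 CPM in WT libraries (-0.90 ± 0.17 (SE), adjusted p = 0.000233). Mrps2 was at 20.7, 26.5 and 17.7 CPM in KO and 40.9, 35.1 and 38.4 CPM in WT libraries (-0.81 ± 0.18 (SE), adjusted p = 0.00128). Both have bacterial counterparts, and neither had an overlap between the groups. Among the mitochondria-specific ones, Mrps25 was at 42.7, 45.02 and 51.2 CPM in KO and 68.4, 67.999 and 81.4 CPM in WT libraries (-0.64 ± 0.13 (SE), adjusted p = 0.000452), and its end overlaps Nr2c2 on the opposite strand. Mrps27, a pentatricopeptide repeat protein that binds RNA (chr13:99344786-99415562, plus strand), was at 11.6, 8.63 and 7.58 CPM in KO and 16.4, 20.1 and 22.04 CPM in WT libraries (-1.003 ± 0.24 (SE), adjusted p = 0.00191). It too was lower in every KO library, at a level near the bottom of the family.

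The 2 mRNAs that rose at day 5 went against both subunits. Mrps6, with a bacterial counterpart in the small-subunit platform, was at 44.002, 38.8 and 41.1 CPM in KO day 5 and 27.5, 31.2 and 27.7 CPM in WT day 5 libraries (0.51 ± 0.16 (SE), adjusted p = 0.0133), with no overlap. Mrpl52, a mitochondria-specific protein, was at 53.1, 80.8 and 77.1 CPM in KO and 56.7, 41.8 and 49.7 CPM in WT libraries (0.49 ± 0.15 (SE), adjusted p = 0.0123). The lowest KO library for Mrpl52 was below the highest WT library, and its adjusted p, 0.000616 to 0.079 over the 21 alternatives, was 0.079 when WT replicate 2 of day 5 was left out and 0.0577 when KO replicate 3 of day 5 was. Other members sat near 0. Mrpl20 had a log2 fold change of 0.00 with a 95% interval of -0.25 to 0.25, and Mrpl30 one of -0.02 with an interval of -0.28 to 0.25. Mrps7 had -0.05 (interval -0.36 to 0.27) and Mrps12, a protein of the decoding centre, had -0.10 (interval -0.38 to 0.17). Under median-of-ratios scaling the sign of Mrpl30, Mrps7 and Mrps12 turned, so no direction is given for them.

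**Figure D2:**
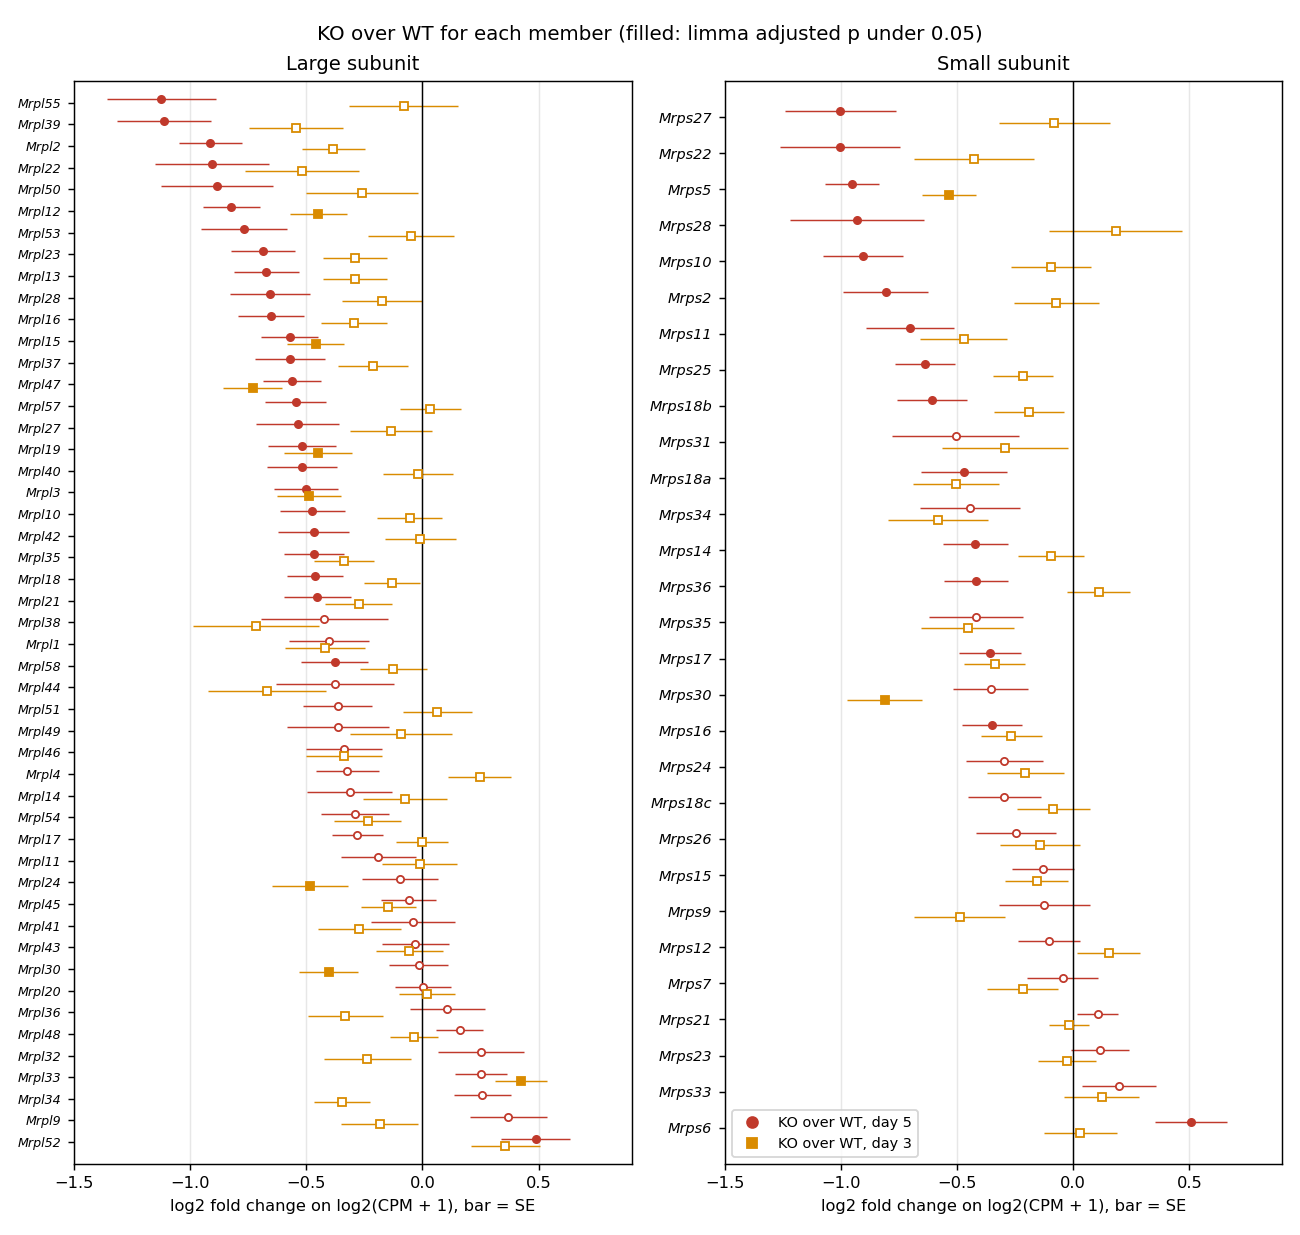
Log2 fold change of KO over WT on the log2(CPM + 1) scale for all 49 large-subunit genes (left) and 29 small-subunit genes (right), sorted by the day 5 value. Red circles are day 5, orange squares are day 3, bars are the SE, and filled symbols passed limma at an adjusted p under 0.05. At day 5, 66 of 78 values lie below 0 with 39 called lower and 2 higher, and at day 3, 67 lie below 0 with 9 called lower and 1 higher.

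At day 3 the same family was lower by a smaller amount and few members passed the test one by one. In KO against WT cells 7 of 49 large-subunit and 2 of 29 small-subunit mRNAs fell, beside 7.23% of all genes tested, and 1 large-subunit mRNA rose, beside 11.2%. The median log2 fold change was -0.24 in the large and -0.19 in the small subunit, beside -0.0098 over all genes, and 67 of 78 members were below 0. All 3 KO libraries lay below all 3 WT libraries for 29 members, beside 19.1% of all genes, and 32 had no overlap in either direction, beside 38.1%. The count of large-subunit mRNAs that fell was 3 with DESeq2 on the recovered reads, 1 on leaving out WT day 3 replicate 2, 3 on leaving out KO day 3 replicate 2, and 4 on leaving out either WT replicate 1 or KO replicate 3 of that day. It was 13 with KO day 5 replicate 2 left out and 11 with KO day 5 replicate 3 left out, both of which enter the shared estimate of spread, and the small-subunit count was then 5 and 4. More of all genes were also called lower at day 3 in the first of these fits, at the share given below beside the cytosolic ribosomal proteins.

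Mrpl47, the counterpart of a bacterial protein at the tunnel exit, had the smallest adjusted p at day 3 (chr3:32725397-32737605, minus strand). It was at 53.2, 60.6 and 52.5 CPM in KO day 3 and 98.9, 86.4 and 92.4 CPM in WT day 3 libraries, a log2 fold change of -0.73 ± 0.13 (SE), adjusted p = 0.000257. The KO mean was 40.1% lower, with no overlap. Mrps30 carries a small-subunit symbol but sits in the large subunit in structures of the mammalian ribosome (chr13:118378381-118387252, minus strand). It was at 36.8, 28.7 and 35.6 CPM in KO and 69.9, 56.5 and 53.3 CPM in WT libraries (-0.81 ± 0.16 (SE), adjusted p = 0.00109), also with no overlap. Mrps5 was at 104, 98.96 and 102 CPM in KO and 139, 158 and 146 CPM in WT libraries (-0.53 ± 0.12 (SE), adjusted p = 0.00249). The KO libraries lay close to each other, and all were below the WT libraries. These 3 calls held under every alternative run, leaving out each library included.

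The other large-subunit calls at day 3 were less firm. Mrpl15 was at 96.5, 79.5 and 99.5 CPM in KO day 3 and 114, 138 and 126 CPM in WT day 3 libraries (-0.46 ± 0.12 (SE), adjusted p = 0.0114), and its adjusted p, 0.00269 to 0.0786 over the 21 alternatives, passed 0.05 if replicate 2 of either genotype at day 3 was left out. Mrpl12 was at 98.4, 119.5 and 101 CPM in KO and 143, 151 and 141 CPM in WT libraries (-0.45 ± 0.12 (SE), adjusted p = 0.0129), and its adjusted p, 0.00204 to 0.0632 over the alternatives, passed 0.05 if WT replicate 2, KO replicate 1 or KO replicate 3 of day 3 was left out. Mrpl3, a core protein with a bacterial counterpart, was at 37.8, 42.2 and 39.4 CPM in KO and 50.3, 57.6 and 61.2 CPM in WT libraries (-0.49 ± 0.14 (SE), adjusted p = 0.0156). None of these had an overlap between KO and WT, although Mrpl3 had an adjusted p of 0.0748 with DESeq2 on the recovered reads and of 0.00902 to 0.0765 over all alternatives, above the threshold also if WT replicate 2, WT replicate 3 or KO replicate 1 of day 3 was left out. Mrpl30, another with a bacterial counterpart, was near 0 at day 5 but was at 69.1, 70.8 and 77.1 CPM in KO day 3 and 98.3, 95.8 and 93.6 CPM in WT day 3 libraries (-0.40 ± 0.13 (SE), adjusted p = 0.0314). Its groups did not overlap at day 3, and the call ended under 6 of the 21 alternatives (adjusted p of 0.0128 to 0.0989), 5 of which leave out a day 3 library. The difference between its KO effects at the 2 days was 0.39 ± 0.18 (SE), adjusted p = 0.181, not past the threshold. Mrpl24 was at 38.3, 34.1 and 31.2 CPM in KO and 53.3, 53.2 and 40.3 CPM in WT day 3 libraries (-0.48 ± 0.16 (SE), adjusted p = 0.0437), again with every KO library below every WT library, and its call ended under 8 of the 21 alternatives (adjusted p of 0.0232 to 0.154). The mRNA that rose was Mrpl33, the shortest member (chr5:31596935-31664384, plus strand). It was at 166, 155 and 170.1 CPM in KO and 114, 114 and 138 CPM in WT libraries (0.42 ± 0.11 (SE), adjusted p = 0.0107), without overlap, and its adjusted p, 0.00208 to 0.0572 over the alternatives, was above the threshold if WT replicate 1 or 2 of day 3 was left out. At day 5 Mrpl33 was at 128, 125 and 167 CPM in KO and 119, 113 and 116 CPM in WT libraries (0.25 ± 0.11 (SE), adjusted p = 0.0776), again with every KO library above every WT library but not past the threshold.

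**Figure D3:**
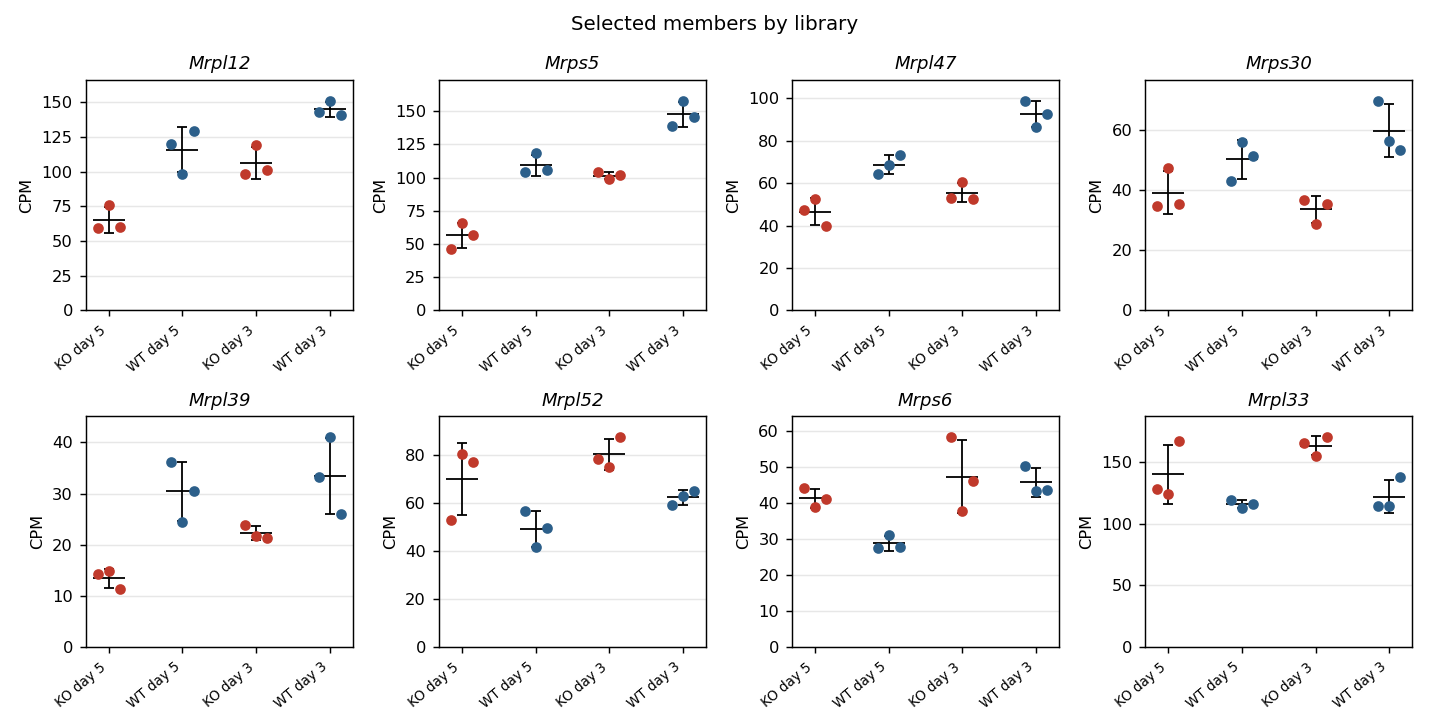
CPM (y axis, from 0) of 8 members in KO day 5, WT day 5, KO day 3 and WT day 3 libraries. Points are libraries, the bar is the mean and the whiskers are 1 SD (n = 3). The KO mean of Mrpl12, Mrps5, Mrpl47, Mrps30 and Mrpl39 lies below the WT mean at both days, whereas that of Mrpl52 and Mrps6 at day 5 and of Mrpl33 at day 3 lies above it.

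The genotype comparisons at the 2 days use different libraries. Of the 78 members, 6 fell at both days, 33 at day 5 alone and 3 at day 3 alone, 2 rose at day 5 and 1 at day 3, and 33 passed in neither. Of all genes tested, 22.9% fell and 16.5% rose at day 5, and 7.23% fell and 11.2% rose at day 3. The shares of all genes in the joint classes are not given here, so the joint counts are a description only. Over the 78 members the log2 fold changes at day 5 and day 3 had a Pearson r of 0.322 and a Spearman rho of 0.298, as a description across genes that share libraries. The value at day 5 was the more negative for 52 of 78. When the difference between the days was tested directly, 3 members passed with a more negative and 1 with a more positive KO effect at day 5, beside 8.85% and 4.01% of all genes. Without KO day 5 replicate 2, 10 members (12.8%) passed with a more negative effect at day 5, beside 10.8% of all genes, and 1 with a more positive one. The median difference was -0.18 in the large and -0.10 in the small subunit, beside -0.11 over all genes, and that of the small subunit was 0.023 with DESeq2 on the recovered reads. So for most members that passed at day 5 alone, a difference between the days was not shown.

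Mrps10 was one of the 4 whose KO effect did differ between days. At day 3 it was at 32.3, 33.5 and 38.8 CPM in KO and 40.3, 36.005 and 35.7 CPM in WT libraries (-0.10 ± 0.17 (SE), adjusted p = 0.749), against the lower KO values at day 5 given above, and the difference of the effects was -0.81 ± 0.24 (SE), adjusted p = 0.0311. Mrpl55 was at 25.9, 20.5 and 16.4 CPM in KO day 3 and 24.3, 17.2 and 24.95 CPM in WT day 3 libraries, and the difference was -1.04 ± 0.33 (SE), adjusted p = 0.0403. KO and WT overlapped at day 3 for both genes and did not at day 5. Mrpl57, another mitochondria-specific protein of the large subunit, was at 53.7, 39.5 and 49.3 CPM in KO day 5, 67.8, 69.7 and 70.1 in WT day 5, 67.1, 67.6 and 83.7 in KO day 3 and 76.4, 68.1 and 68.1 in WT day 3, with a difference of -0.58 ± 0.19 (SE), adjusted p = 0.0434. Mrpl34 went the other way, at 105, 116 and 94.1 CPM in KO day 5, 92.9, 74.7 and 96.6 in WT day 5, 75.6, 87.1 and 92.98 in KO day 3 and 105, 102 and 119 in WT day 3, with a difference of 0.60 ± 0.17 (SE), adjusted p = 0.0227. Each of the 4 calls ended under some alternatives, with adjusted p of 0.016 to 0.144 for Mrps10, 0.024 to 0.145 for Mrpl55, 0.0212 to 0.206 for Mrpl57 and 0.0104 to 0.0781 for Mrpl34 over the 21 alternatives. The Mrpl34 call ended if WT day 3 replicate 3, KO day 3 replicate 1 or WT day 5 replicate 2 was left out, and the other calls ended when any 1 of 7 (Mrps10 and Mrpl55) or 9 (Mrpl57) of the 12 libraries was left out.

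From day 3 to day 5 the family declined in both genotypes. In KO cells 26 of 49 large-subunit and 12 of 29 small-subunit mRNAs fell at day 5 against day 3, beside 19.7% of all genes, and 2 large-subunit mRNAs rose, beside 15.4%. Median log2 fold changes were -0.44 in the large and -0.32 in the small subunit, beside -0.039 over all genes. All day 5 libraries lay below all day 3 libraries for 42 members, beside 23.3% of all genes, and 45 had no overlap in either direction, beside 43.4%. In WT cells 10 large-subunit and 3 small-subunit mRNAs fell, beside 3.77% of all genes, and 0 rose by limma, beside 7.17%. At an unadjusted p under 0.05, with edgeR and with DESeq2 the number that rose was also 0. Median log2 fold changes were -0.30 and -0.20, beside 0.045 over all genes. All day 5 libraries lay below all day 3 libraries for 36 members, beside 13.1%, and 39 had no overlap in either direction, beside 31.4%. The summed CPM of all members differed by -21.6% between days in KO and by -15.4% in WT cells. Dividing by the median-of-ratios factors would narrow the difference in KO and widen it in WT cells, but the sums were not rescaled. The KO day 5 libraries enter both this comparison and that of KO with WT at day 5, so the 2 are not independent. Leaving out any 1 of the 6 WT libraries took the large-subunit count in WT cells to 4 or 5, and leaving out KO day 5 replicate 2 took the KO calls over both subunits to 1 higher and 42 lower. The shares over all genes in these fits are not given here.

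Mrpl42 fell between days in both genotypes. It was at 31.1, 32.7 and 22.1 CPM in KO day 5 and 69.6, 54.1 and 62.4 CPM in KO day 3 libraries (-1.10 ± 0.15 (SE), adjusted p = 6.72e-06), and at 39.1, 39.6 and 39.6 CPM in WT day 5 and 59.8, 59.3 and 67.5 CPM in WT day 3 libraries (-0.64 ± 0.15 (SE), adjusted p = 0.00776). Mrpl18, the most abundant large-subunit mRNA and one whose bacterial counterpart binds ribosomal RNA in the central protuberance, was at 88.7, 136 and 99.2 CPM in KO day 5 and 192, 178 and 181 CPM in KO day 3 libraries (-0.79 ± 0.12 (SE), adjusted p = 2.25e-05). In WT cells it was at 161, 134 and 146 CPM at day 5 and 204, 192 and 208 CPM at day 3 (-0.46 ± 0.12 (SE), adjusted p = 0.0159). No day 5 library overlapped a day 3 library of its genotype for either gene. In WT cells Mrpl36 (-0.78 ± 0.16 (SE), adjusted p = 0.00257) and Mrpl1 (-0.72 ± 0.17 (SE), adjusted p = 0.00829) also fell at day 5, as did the small-subunit mRNAs Mrps5 (-0.43 ± 0.12 (SE), adjusted p = 0.0192), Mrps6 (-0.65 ± 0.16 (SE), adjusted p = 0.00889) and Mrps21 (-0.28 ± 0.09 (SE), adjusted p = 0.0397). The Mrps5 call in WT cells ended under 4 alternatives, the Mrps6 call under 1 and the Mrps21 call under 7, all of which leave out a library (adjusted p of up to 0.0972, 0.0543 and 0.154). The KO mRNAs that rose were Mrpl9 (0.60 ± 0.17 (SE), adjusted p = 0.007), at 47.2, 39.5 and 44.9 CPM in KO day 5 and 24.9, 33.5 and 27.9 CPM in KO day 3 libraries, and Mrpl24 (0.44 ± 0.16 (SE), adjusted p = 0.041), at 44.002, 50.6 and 46.7 CPM at day 5 and 38.3, 34.1 and 31.2 CPM at day 3. Both are large-subunit proteins with bacterial counterparts. The Mrpl24 call ended under 6 alternatives (adjusted p of 0.0235 to 0.136), KO day 5 replicate 2 or 3 and KO day 3 replicate 2 or 3 left out among them, and the end of the gene overlaps Rrnad1 on the opposite strand.

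Levels ranged widely within the family, with a median over all libraries of 54.1 CPM in the large subunit (17.1 to 160 CPM) and 45.3 CPM in the small subunit (15.3 to 191 CPM). The libraries count 1 tag per transcript, so CPM needs no division by length. Mrps21, counterpart of a bacterial small-subunit protein, was the highest, with 195, 167 and 189 CPM in KO day 5 and 170.0, 162 and 179 CPM in WT day 5 libraries (0.10 ± 0.09 (SE), adjusted p = 0.36). Mrps28, the lowest, was at 7.12, 9.87 and 4.42 CPM in KO day 5 and 12.9, 18.4 and 11.3 CPM in WT day 5 libraries (-0.93 ± 0.29 (SE), adjusted p = 0.0131), which rest on 34 reads in the 3 KO libraries. Its call ended if WT replicate 2 or KO replicate 3 of day 5 was left out and with DESeq2 (adjusted p of 0.00246 to 0.088 over the 21 alternatives). Depth limits what can be shown for such members at day 5, with an SE of 0.29 for Mrps28 and 0.09 for Mrps21.

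Of the 78 members, 11 share their last 500 annotated bases with another gene, 3 on the same strand and 9 on the opposite one, so their reads may be divided in an unknown way.

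Splitting the family by an assigned bacterial counterpart gave like medians on both sides at day 5, whereas the shares that fell at day 3 differed. The split does not strictly follow descent. Mrps18a and Mrps18b were counted as mitochondria-specific, although they are paralogues of Mrps18c, which was counted as having a bacterial counterpart. No test was made between the sides. Of the 46 members with a bacterial counterpart 25 fell and 1 rose at day 5, with a median log2 fold change of -0.41, and of the 32 mitochondria-specific members 14 fell and 1 rose, with a median of -0.42. At day 3, 8 (17.4%) fell and 1 rose among those with a bacterial counterpart (median -0.23). Among the mitochondria-specific ones 1 (3.1%) fell (median -0.17), and of all genes tested 7.23% fell. Placing Mrps30 and Mrps18a in the large subunit, where they sit in structures, gave 26 of 51 large-subunit and 13 of 27 small-subunit mRNAs that fell at day 5, and 8 of 51 and 1 of 27 at day 3. The 3 Mrps18 paralogues, which are different proteins at different sites of the ribosome, had log2 fold changes at day 5 of -0.61 ± 0.15 (SE) for Mrps18b (adjusted p = 0.0026), -0.47 ± 0.19 (SE) for Mrps18a (adjusted p = 0.05), and -0.30 ± 0.16 (SE) for Mrps18c (adjusted p = 0.145). The Mrps18a call lies at the threshold and ended under 16 of 21 alternatives (adjusted p of 0.0336 to 0.293). Mrps36, since described as a component of the 2-oxoglutarate dehydrogenase complex and not of the ribosome, was at 33.6, 41.3 and 44.9 CPM in KO day 5 and 59.01, 49.05 and 52.5 CPM in WT day 5 libraries (-0.42 ± 0.14 (SE), adjusted p = 0.0182). Its groups did not overlap, and its call ended under 6 alternatives, the other scalings among them (adjusted p of 0.0106 to 0.238).

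Coding length, which the choice of members did not use, went with the size of the difference. This was looked at after the values were seen and is given as a description. The 26 members with the shortest coding sequences (195 to 480 bases) had a median log2 fold change of -0.29 at day 5 and -0.065 at day 3. The 26 of middle length (498 to 753 bases) had -0.46 and -0.22, and the 26 longest (756 to 1326 bases) had -0.50 and -0.40. Of the 9 mRNAs that fell at day 3, 6 were among the longest, and both that rose at day 5 and the one that rose at day 3 were among the shortest. Over the 78 members the Pearson r of log2 fold change with log10 coding length was -0.398 at day 5 and -0.564 at day 3, whereas over 11374 tested genes with an annotated coding sequence it was 0.020 and 0.0075. Each KO library had a negative r against the WT mean, with -0.414, -0.218 and -0.383 in KO day 5 and -0.378, -0.500 and -0.531 in KO day 3 libraries. WT libraries set against the other WT libraries of their day had r of -0.158, 0.189 and -0.036 at day 5 and -0.082, 0.169 and -0.073 at day 3. The value of KO day 5 replicate 2 was thus close in size to those of single WT libraries. All of these values share the WT libraries of their day. Level also went with the difference in part, with an r of 0.365 at day 5 and 0.238 at day 3 between log2 fold change and mean log level. Among cytosolic ribosomal proteins r with length was -0.202 and -0.331, and among nuclear subunits of oxidative phosphorylation -0.173 and -0.152. RNA integrity was not measured in the files, and its part was not tested.

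**Figure D4:**
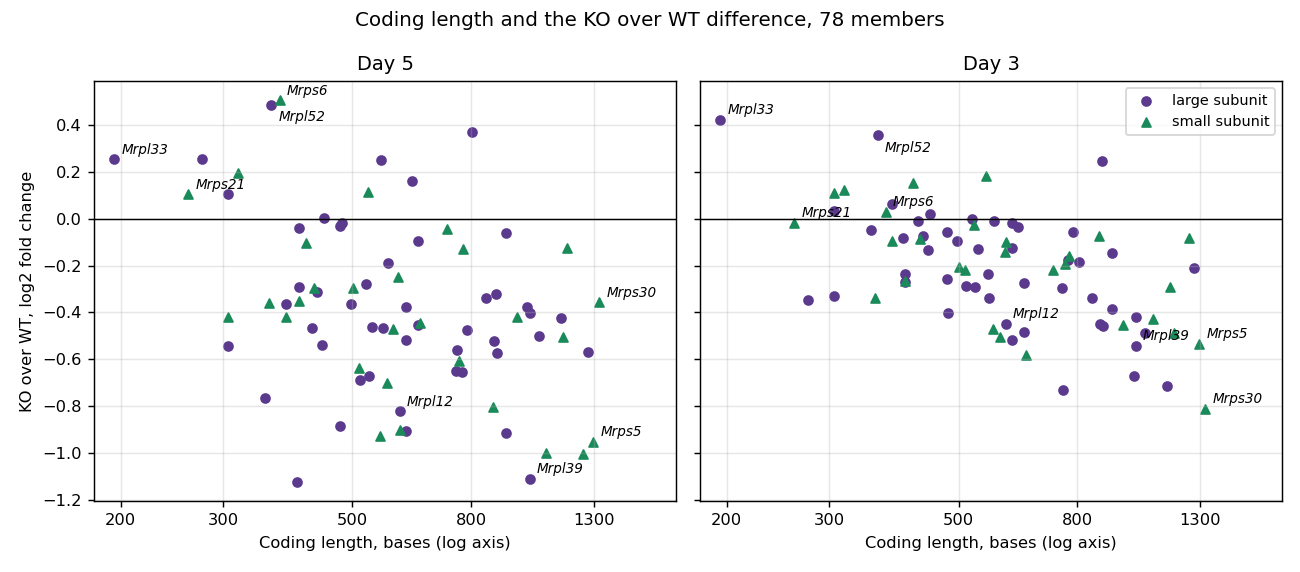
Log2 fold change of KO over WT (y axis, log2(CPM + 1) scale) against coding length in bases (x axis, log scale) for the 78 members at day 5 (left) and day 3 (right). Purple circles are large-subunit and green triangles small-subunit genes, and 8 members are named. The longer members lie lower, with a Pearson r of -0.398 at day 5 and -0.564 at day 3.

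Promoters were read because the members moved together. In mammals many such promoters carry sites for ETS factors such as GABP, for YY1 and for NRF1, and MYC binds E-boxes. A promoter window from RefSeq (GRCm38.p6, 250 bases before to 50 after the start) was on hand for 69 members. The ETS core CCGGAAG, on either strand, was in 26 of 69 member promoters (37.7%), in 21.4% of 9153 tested genes with a window and in 9.93% of all 27025 genes with one. The YY1 motif AAGATGGC was in 12 member promoters (17.4%), beside 5.56% and 3.19%. The NRF1 core CGCATGCG was in 7 (10.1%), beside 4.63% and 2.07%, and the E-box CACGTG in 5 (7.25%), beside 11.7% and 8.09%. Members that fell at day 5 and members that did not pass had like shares, 37.1% of 35 and 37.5% of 32 for the ETS core and 17.1% and 18.8% for YY1. Both strands were searched for each, and none of the 4 motifs lies within another. A match is a description of letters and not evidence of binding.

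Below are the 250 bases before the start of 4 members, 5′ to 3′ on the gene's own strand. Mrps27 and Mrps5 fell at day 5, Mrpl52 rose, and Mrpl43 (a log2 fold change of -0.03 ± 0.14 (SE), adjusted p = 0.888) was the closest to 0 among members that did not pass and hold an ETS or YY1 match. All were chosen after their values were seen. Mrps27 and Mrpl52 were also required to hold an ETS or YY1 match in the bases shown, and Mrps5 to hold none of the 4 motifs. The windows are chr13:99344536-99344785 (plus strand) for Mrps27, chr2:127587176-127587425 (plus) for Mrps5, chr14:54426659-54426908 (plus) for Mrpl52 and chr19:45006443-45006692 (minus) for Mrpl43, all on GRCm38.p6. Capitals mark the ETS core CCGGAAG or its reverse complement CTTCCGG, and Mrps5 has no match to the 4 motifs in the bases shown. The full window of Mrps27 also holds a YY1 match, which does not lie within the bases shown.
Mrps27: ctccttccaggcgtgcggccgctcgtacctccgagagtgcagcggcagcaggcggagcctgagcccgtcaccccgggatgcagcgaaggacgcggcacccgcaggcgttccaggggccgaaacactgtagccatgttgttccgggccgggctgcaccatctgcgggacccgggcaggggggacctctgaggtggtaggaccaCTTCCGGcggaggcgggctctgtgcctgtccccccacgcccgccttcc
Mrps5: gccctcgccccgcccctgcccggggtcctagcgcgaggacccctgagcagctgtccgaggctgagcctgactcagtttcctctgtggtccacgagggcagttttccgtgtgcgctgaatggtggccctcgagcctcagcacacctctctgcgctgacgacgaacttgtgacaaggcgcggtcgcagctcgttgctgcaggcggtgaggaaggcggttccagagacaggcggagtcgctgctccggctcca
Mrpl52: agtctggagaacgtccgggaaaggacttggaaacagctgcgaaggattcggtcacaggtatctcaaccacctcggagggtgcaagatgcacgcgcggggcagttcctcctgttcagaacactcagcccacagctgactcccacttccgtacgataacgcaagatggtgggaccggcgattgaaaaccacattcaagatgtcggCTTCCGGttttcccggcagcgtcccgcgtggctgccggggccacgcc
Mrpl43: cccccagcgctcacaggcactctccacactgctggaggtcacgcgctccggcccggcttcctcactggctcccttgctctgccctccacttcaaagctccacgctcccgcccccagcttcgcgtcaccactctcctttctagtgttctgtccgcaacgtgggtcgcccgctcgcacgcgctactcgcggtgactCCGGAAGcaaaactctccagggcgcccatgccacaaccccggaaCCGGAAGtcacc
A match in the windows of Mrps27, Mrpl52 and Mrpl43 and none in that of Mrps5 were set by the way the windows were chosen. They do not bear on how motif and direction go together. Mrps5 was also the member with the smallest adjusted p at day 5.

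The rest of the mitochondrial translation apparatus was described from gene lists drawn up by function, with earlier results of these data known. Mitoribosome proteins whose symbols the rule does not cover were listed together with Oxa1l, a membrane insertase and not a ribosomal protein. This list went the same way: 4 of 6 genes fell at day 5 and 3 of 6 at day 3, beside 22.9% and 7.23% of all genes, with medians of -0.60 and -0.32. Ptcd3, a pentatricopeptide repeat protein of the small subunit, was at 24.6, 26.5 and 25.3 CPM in KO day 5 and 54.9, 49.6 and 49.2 CPM in WT day 5 libraries (-0.98 ± 0.15 (SE), adjusted p = 1.46e-05), with no overlap. Dap3, a GTP-binding protein of the small subunit, had -0.66 ± 0.13 (SE), adjusted p = 0.00049, Gadd45gip1 of the large subunit had -0.63 ± 0.12 (SE), adjusted p = 0.000331, and Chchd1 of the small subunit had -0.56 ± 0.13 (SE), adjusted p = 0.00187. Of 14 translation factors tested, 4 (28.6%) fell at day 5 and 1 (7.14%) at day 3, near the share of all genes, with medians of -0.35 and -0.20. With DESeq2 on the recovered reads 1 fell at day 5. Those that fell were Gfm1, the elongation factor that moves the ribosome along the mRNA (-1.13 ± 0.20 (SE), adjusted p = 0.000129), Gfm2, which splits spent ribosomes (-0.73 ± 0.22 (SE), adjusted p = 0.0105), Tufm, which delivers aminoacyl-tRNA (-0.58 ± 0.18 (SE), adjusted p = 0.0124), and Guf1 (-0.86 ± 0.22 (SE), adjusted p = 0.00368), the one that also fell at day 3 (-0.95 ± 0.22 (SE), adjusted p = 0.00425). Of 20 mitochondrial aminoacyl-tRNA synthetases and their partners, 6 (30%) fell and 1 rose at day 5 and 3 (15%) fell at day 3, with medians of -0.32 and -0.26. With edgeR 3 fell at day 5, and with DESeq2 2 at day 5 and 0 at day 3. Examples are Iars2 (-0.70 ± 0.16 (SE), adjusted p = 0.00141) and Vars2 (-1.06 ± 0.24 (SE), adjusted p = 0.00116).

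Of 25 assembly and rRNA modification genes, 3 (12%) fell and 2 rose at day 5, a smaller share than the 22.9% of all genes, and 3 (12%) fell at day 3, with medians of -0.41 and -0.14. At day 3 edgeR called 2 of them lower and DESeq2 1. Nsun2, an RNA methyltransferase that acts mostly outside mitochondria, had -0.89 ± 0.08 (SE), adjusted p = 1.94e-08, the assembly GTPase Noa1 had -0.98 ± 0.20 (SE), adjusted p = 0.00056, and Fastkd2, which binds mitochondrial RNA, had -1.66 ± 0.34 (SE), adjusted p = 0.000524. Of 19 genes for transcription of mitochondrial DNA and RNA handling, 8 (42.1%) fell and 1 rose at day 5 and 2 (10.5%) fell at day 3, with medians of -0.60 and -0.23. With DESeq2 5 fell at day 5 and 1 at day 3. Lrpprc, which stabilises mitochondrial mRNAs, was at 79.6, 62.9 and 85.9 CPM in KO day 5 and 165, 152 and 163 CPM in WT day 5 libraries (-1.07 ± 0.11 (SE), adjusted p = 6.36e-08). Tfam, the packaging and transcription factor of mitochondrial DNA, was at 40.1, 41.9 and 42.3 CPM in KO and 77.1, 66.9 and 68.9 CPM in WT libraries (-0.76 ± 0.12 (SE), adjusted p = 4.45e-05). Hsd17b10, a dehydrogenase that is also a subunit of mitochondrial RNase P, was the gene that rose, at 95.1, 97.4 and 139.6 CPM in KO and 41.5, 42.9 and 47.5 CPM in WT libraries (1.29 ± 0.16 (SE), adjusted p = 1.38e-06). None of these 3 had an overlap between the groups.

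The mRNAs that this ribosome translates did not follow its proteins at day 3. Of the 13 mRNAs encoded by mitochondrial DNA, 6 rose in KO against WT cells at day 3, beside 11.2% of all genes, with a median log2 fold change of 0.31. At day 5, 3 (23.1%) fell, near the 22.9% of all genes, with a median of -0.0045. The day 5 result rests on KO day 5 replicate 2 and on the scaling. Without that library 5 rose and 3 fell at day 5 (median 0.096) and 9 rose at day 3. With all libraries, median-of-ratios scaling called 4 of them higher at day 5, edgeR on the recovered reads 3 and DESeq2 4, and quantile normalization 0. At day 3 mt-Cytb had 0.53 ± 0.09 (SE), adjusted p = 0.000378 and mt-Nd4 had 0.47 ± 0.09 (SE), adjusted p = 0.00064, and at day 5 mt-Nd1 had -0.63 ± 0.08 (SE), adjusted p = 1.31e-06. Summed mitochondrial mRNA over summed member mRNA was 8.94, 5.54 and 9.11 in KO day 5 libraries, 7.36, 6.89 and 6.97 in WT day 5, 8.88, 8.43 and 8.37 in KO day 3, and 6.37, 6.25 and 6.24 in WT day 3. All KO libraries were above all WT libraries at day 3. At day 5 KO replicates 1 and 3 were above the WT libraries, and replicate 2, the library that stood apart, was below them.

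Set beside the other large families of the same organelle and of the other ribosome, the members had a median near that of the nuclear subunits of oxidative phosphorylation at day 5, whereas that of the cytosolic ribosomal proteins had the other sign. Of 81 nuclear oxidative phosphorylation subunits tested, 41 fell and 5 rose at day 5 (median -0.32), beside 22.9% and 16.5% of all genes. At day 3, 6 fell and 1 rose (median -0.066), a share of 7.41% lower beside 7.23% of all genes. Without KO day 5 replicate 2, 12 fell at day 3, beside 10.8% of all genes in that fit, and 2 rose. With median-of-ratios scaling the day 5 calls of that list were 29 lower and 8 higher, and with quantile normalization 30 and 10, and with DESeq2 on the recovered reads 23 and 7. Of 78 cytosolic ribosomal protein mRNAs tested, 35 rose at day 5 (median 0.16), beside 16.5% of all genes. At day 3, 5 (6.41%) fell (median -0.098), near the 7.23% of all genes. Without KO day 5 replicate 2 the day 3 count was 27 lower, beside 10.8% of all genes in that fit. Under quantile normalization 18 of them rose and 8 fell at day 5. Their summed level differed by 13.1% between KO and WT at day 5 and by -6.81% at day 3. No test was made between the lists.

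**Figure D5:**
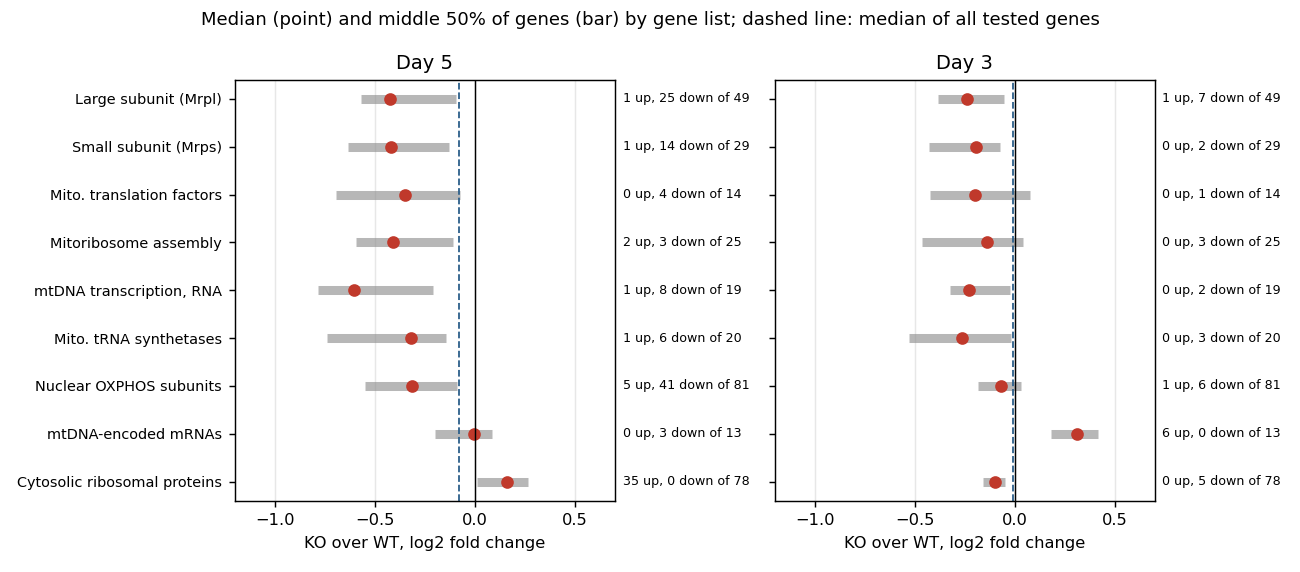
Median log2 fold change of KO over WT (points) and the middle 50% of genes (bars) for the 2 subunits and 7 other gene lists at day 5 (left) and day 3 (right), with the number called higher and lower beside each. The dashed line is the median of all 11417 genes tested. At day 5 the 2 subunits have a median of -0.42, nuclear oxidative phosphorylation subunits -0.32 and cytosolic ribosomal proteins 0.16.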

How the data were processed

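Messenger RNA was measured in 12 QuantSeq 3′ libraries, made from 500 ng of total RNA each per the labels' protocols, grouped and numbered by their titles. The deposited values are named TPM, but each library sums to 1000000 and 100% of its values are whole multiples of 1 read within 0.001 read. They were therefore treated as CPM, which the authors made from whole reads per gene. Both GRCm39 and mm10 stand in the submitters' processing notes, with no role for either. The aligner, counting tool, annotation and strand setting were not given in the sources used here. Members were found by symbol, and the 78 were matched by Ensembl identifier to GENCODE M21 (GRCm38), from which coordinates, coding lengths and gene ends come. Promoters come from RefSeq (GRCm38.p6).

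Genes with at least 1 CPM in at least 3 libraries were tested (11417, with 14238 not tested). The fit was limma 3.58.1 (R 4.3.3) on log2(CPM + 1), all 12 libraries together with 1 mean per group and a trended prior (21.1 degrees of freedom). Two-sided p-values had a Benjamini-Hochberg adjustment across the 11417 genes, separately in each of 5 comparisons, with a threshold of 0.05. Members, gene lists and tests were chosen with earlier results of these data known. Genes were named by rule: the smallest adjusted p per subunit and comparison, the highest and lowest levels, those nearest 0 at day 5, those called against their subunit, members of a count of 5 or fewer, and some for their role. Bacterial counterparts were assigned from textbook knowledge, and all other members were called mitochondria-specific. No p is given for a sum or median over members. Libraries held 1545391 to 2011247 reads, and no read in a whole group allows up to 0.527 to 0.632 CPM (3 reads), for counting error only.

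Alternatives were pseudocounts of 0.1 and 5, no filter, a filter of 5 CPM, median-of-ratios scaling, quantile normalization, a replicate block, edgeR 4.0.16 (quasi-likelihood) and DESeq2 1.42.0 on the recovered reads, subunits by structure, and leaving out each library. The fits were tested on simulated data. Columns of other samples numbered 0.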

Additional observations from a re-analysis of the deposited data

Results flagged for a closer look

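The KO effect, as a log2 fold change of KO over WT, differed between day 5 and day 3 for 4 members by limma's interaction test. The difference (day 5 minus day 3) was -1.04 ± 0.33 (SE), adjusted p = 0.0403 for Mrpl55, -0.81 ± 0.24 (SE), adjusted p = 0.0311 for Mrps10 and -0.58 ± 0.19 (SE), adjusted p = 0.0434 for Mrpl57, whose KO effects were -1.12, -0.90 and -0.54 at day 5 and -0.08, -0.10 and 0.03 at day 3. It was 0.60 ± 0.17 (SE), adjusted p = 0.0227 for Mrpl34, whose KO effect was 0.26 at day 5 and -0.35 at day 3. Under median-of-ratios scaling the calls of Mrpl55, Mrps10 and Mrpl57 ended, and that of Mrpl34 did not.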

How the results depend on the processing

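In both genotype comparisons the medians of both subunits stayed negative under every alternative run, from -0.46 to -0.30 (large) and -0.47 to -0.28 (small) at day 5, and from -0.26 to -0.20 (large) and -0.20 to -0.14 (small) at day 3. The counts depended more on scaling and tool. At day 5 the large-subunit count called higher was 5 with median-of-ratios scaling, 4 with quantile normalization, 4 with edgeR and 2 with DESeq2, against 1, and the count called lower was 12 with DESeq2, against 25. The small-subunit count called higher was 2 with quantile normalization, against 1, and the count called lower was 9 with median-of-ratios scaling, quantile normalization and edgeR and 7 with DESeq2, against 14. DESeq2 moved the median of all genes at day 5 to 0.027, against -0.079. At day 3, 3 large-subunit mRNAs were called lower with DESeq2, against 7, and 1 small-subunit mRNA with subunits by structure, against 2. For KO cells between days, 1 large-subunit mRNA was called higher with no filter and with DESeq2, against 2. In the interaction, the large-subunit count lower was 1 with a pseudocount of 5 or edgeR and 0 with no filter, median-of-ratios scaling, quantile normalization or DESeq2, against 2, and the small-subunit count was 0 with those scalings and DESeq2 and 2 with the replicate block, against 1. The cause of these changes was not tested. The interaction median of the small subunit turned to 0.023 with DESeq2.

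Leaving out 1 library at a time gave, at day 5, 0 to 2 large-subunit mRNAs higher and 22 to 28 lower, and 1 to 1 small-subunit higher and 9 to 17 lower (9 when WT replicate 2 or KO replicate 3 of that day was left out). At day 3 the counts were 0 to 2 and 1 to 13 in the large, and 0 to 0 and 2 to 5 in the small subunit. For KO cells between days they were 1 to 3 and 23 to 29, and 0 to 1 and 9 to 13, and for WT cells 0 to 0 and 4 to 14, and 0 to 0 and 1 to 4. For the interaction they were 0 to 2 and 0 to 5, and 0 to 0 and 0 to 5. Of 1344 alternative values for 64 results on single members, 1170 kept direction and side of the threshold, 148 lost the call, 11 gained it and 15 turned sign, all of the last for members near 0 at day 5. Mrpl30 became 0.0908, 0.0877, 0.0715 and 0.0990 and Mrps7 0.0597, 0.0378, 0.0372 and 0.0643 with median-of-ratios scaling, quantile normalization, edgeR and DESeq2, and Mrps12 became 0.00276 with median-of-ratios scaling. On leaving out 1 library Mrpl30 lay between -0.116 and 0.134 and Mrpl20 between -0.112 and 0.127. Replicate numbers showed no sign of pairing the libraries: deviations of same-numbered libraries correlated at -0.014 to 0.039, and the replicate block moved no other count past 1.5 times. Counting noise lowers such correlations, so they cannot exclude a pairing. Depth limits the low members: Mrps28, the lowest, had 34 reads over the KO day 5 libraries.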

Other observations

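Of 10 regulators of nuclear genes for mitochondria that were tested, 4 fell in KO against WT at day 5, beside 22.9% of all genes, and 1 at day 3, beside 7.23%. With DESeq2 on the recovered reads 2 fell and 1 rose at day 5. Myc, a transcription factor that drives ribosome and mitochondrial gene expression in activated T cells, was at 24.6, 38.2 and 28.4 CPM in KO day 5 and 49.1, 50.7 and 43.5 CPM in WT day 5 libraries (-0.65 ± 0.15 (SE), adjusted p = 0.00127), and at 48.7, 54.1 and 46.5 CPM in KO day 3 and 79.96, 86.4 and 81.1 CPM in WT day 3 libraries (-0.72 ± 0.15 (SE), adjusted p = 0.0015), with no overlap at either day. Hcfc1, a chromatin cofactor, was at 107, 134 and 90.3 CPM in KO and 156, 154 and 176 CPM in WT day 5 libraries (-0.56 ± 0.11 (SE), adjusted p = 0.000444). Ppargc1b, a coactivator of mitochondrial genes, was at 11.001, 13.6 and 7.58 CPM in KO and 21.6, 18.95 and 22.04 CPM in WT day 5 libraries (-0.93 ± 0.26 (SE), adjusted p = 0.00731).

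Of the 8 CD8 T cell markers, 5 rose in KO against WT at day 5, and at day 3, 1 rose and 3 fell. Cd3g, a chain of the T cell receptor complex, was at 234, 324 and 269.8 CPM in KO day 5 and 132, 123 and 131 CPM in WT day 5 libraries (1.08 ± 0.11 (SE), adjusted p = 6.60e-08), and Cd2, an adhesion receptor, at 249.1, 239.6 and 244 CPM in KO day 3 and 494, 461 and 463 CPM in WT day 3 libraries (-0.95 ± 0.10 (SE), adjusted p = 4.65e-07). Of the 5 myeloid markers tested, 4 rose at day 5, among them Itgam at 9.06, 6.17 and 5.69 CPM in KO and 0.584, 0 and 0.565 CPM in WT libraries (2.53 ± 0.43 (SE), adjusted p = 6.76e-05), an integrin chain that some activated T cells also express.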
